A study of Mus musculus with 12 samples.

Results

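Keratin-associated proteins fill the space between the keratin filaments of the hair shaft, and their genes are named Krtap in the mouse. All genes whose symbol begins with Krtap were taken as members, which gave 53 of the 7902 genes in the deposited tables. The study measured messenger RNA in mouse skin with 12 RNA-seq libraries, 4 in each of 3 groups. In M+NSPCC1, mice of the ageing model also received NSPCC1, a grape seed extract. In Model, skin ageing had been induced with D-galactose and UVA/UVB light, and Ctrl was control skin. Strain, sex, age, body site, doses and treatment times are not stated in the labels. Nor do the labels tie each library to its own animal, and a p-value here reflects library-to-library spread that may be partly technical.

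As background, a hair shaft consists of a cortex, a cuticle and often a medulla, made by cells that leave the matrix at the base of a growing follicle. These cells first fill with hair keratins and then with keratin-associated proteins, which are joined to the keratins and to each other by disulfide bonds. The proteins fall into a high-glycine-tyrosine, a high-sulfur and an ultra-high-sulfur subfamily by their amino acid content, and resting follicles make little of them. Subfamilies were assigned here from the family number in the symbol, since no protein sequence was used. This gave 14 high-glycine-tyrosine, 21 high-sulfur and 18 ultra-high-sulfur members.

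The members lie in 5 places of the genome, by the RefSeq annotation of GRCm38.p6. On chromosome 16, 22 members span 960 kb (chr16:88610709-89571183). Of these, 14 are all of the genes assigned as high-glycine-tyrosine, and 8 were assigned as high-sulfur. Krtap16-3 there and Krtap16-1 on chromosome 11 share a family number, which alone placed both as high-sulfur. On chromosome 11, 22 members span 444 kb (chr11:99550132-99993994), with 10 high-sulfur and 12 ultra-high-sulfur genes. The 5 genes of family 5 lie on chromosome 7 (chr7:142174532-142304503), and 3 genes of families 10 and 12 lie on chromosome 10 (chr10:77720586-77837251). Krtap28-13 is alone on chromosome 1 (chr1:83060930-83061921). The annotation holds 3 further Krtap symbols, Krtap13, Krtap29-1 and Krtap6-3, which were not analysed here.

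RefSeq gave a promoter for 48 of the 53 members, and most share a short element at a like distance from the start of the gene. The letters TATAAA, the usual form of the TATA box that places the start of transcription, stood on the gene's strand of the 300-base window in 39 of 48 Krtap promoters (81.2%), against 8.88% of 27025 promoters in the table. In 29 of 48 (60.4%), its first base lay 25 to 40 bases before the start (27 to 37, median 31), against 2.13% of all promoters. By subfamily, the window held TATAAA in 9 of 13 high-glycine-tyrosine, 14 of 18 high-sulfur and 16 of 17 ultra-high-sulfur promoters. The 100 bases before the start are printed below 5′ to 3′ on the gene's strand, from RefSeq (GRCm38.p6), with TATAAA in capitals. By mean FPKM in Model, a measure explained below, Krtap8-1 and Krtap22-2 were the highest of all members. By the same measure Krtap3-1 and Krtap9-3 were the highest high-sulfur and ultra-high-sulfur genes. Krtap15 shows a highly expressed gene without these 6 letters, and Krtap3-2 is the member with most reads in Ctrl. Krtap31-1 and Krtap31-2 had the smallest p-values in M+NSPCC1 against Model, and Krtap20-2 had 1 library far above the others.
Krtap8-1, chr16:89487953-89488052, minus strand: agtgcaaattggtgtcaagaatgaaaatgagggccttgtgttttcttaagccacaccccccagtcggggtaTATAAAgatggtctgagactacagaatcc
Krtap22-2, chr16:89010760-89010859, minus strand: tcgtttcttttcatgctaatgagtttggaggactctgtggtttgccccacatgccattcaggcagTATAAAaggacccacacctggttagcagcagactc
Krtap3-1, chr11:99566631-99566730, minus strand: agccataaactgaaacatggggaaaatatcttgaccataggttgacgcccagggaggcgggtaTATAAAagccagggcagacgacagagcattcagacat
Krtap15, chr16:88828909-88829008, plus strand: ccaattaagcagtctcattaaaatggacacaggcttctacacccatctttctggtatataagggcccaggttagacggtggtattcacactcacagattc
Krtap9-3, chr11:99598107-99598206, minus strand: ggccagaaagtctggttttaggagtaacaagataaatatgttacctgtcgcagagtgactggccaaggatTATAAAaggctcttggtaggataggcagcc
Krtap3-2, chr11:99556854-99556953, minus strand: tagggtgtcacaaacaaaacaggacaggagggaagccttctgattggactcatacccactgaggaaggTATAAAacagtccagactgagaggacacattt
Krtap31-1, chr11:99907820-99907919, plus strand: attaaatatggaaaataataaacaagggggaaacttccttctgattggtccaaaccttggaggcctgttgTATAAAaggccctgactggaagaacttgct
Krtap31-2, chr11:99936191-99936290, plus strand: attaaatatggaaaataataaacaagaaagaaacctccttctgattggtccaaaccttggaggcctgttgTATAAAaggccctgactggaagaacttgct
Krtap20-2, chr16:89205761-89205860, plus strand: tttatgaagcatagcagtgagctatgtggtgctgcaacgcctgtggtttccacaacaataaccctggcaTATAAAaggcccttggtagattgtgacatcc
The printed stretches of Krtap31-1 and Krtap31-2 had the same base at 96 of 100 positions. CTTTGA, the core that LEF1 and related factors bind, stood on either strand of the 300-base window in 14 of 48 Krtap promoters (29.2%), against 16.2% of all promoters, by subfamily in 3 of 13 high-glycine-tyrosine (23.1%), 10 of 18 high-sulfur (55.6%) and 1 of 17 ultra-high-sulfur promoters (5.88%). TTTACG, a core bound by the hair factor HOXC13 in binding assays, stood on either strand in 1 of 48 Krtap promoters and in 3.14% of all promoters. Matches of different motifs shared bases in 0 of 48 Krtap promoters, and a match describes letters only.

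Values are estimated counts scaled to library size (CPM, with TMM factors) or FPKM, which also divides by a length for each transcript. FPKM is used where 1 gene is set against another. Its divisor was not the annotated length and raised short transcripts more than that length would. In Model 01, Krtap8-1 had 29129 estimated counts and 6605 FPKM, and the shorter Krtap22-2 had 7426 estimated counts and 5958 FPKM. The order of members by FPKM thus differed from that by CPM. Library totals in the tables ran from 9717338 to 10952623 estimated counts. All 53 members passed the filter on low counts. A gene was called where edgeR's quasi-likelihood test gave a Benjamini-Hochberg adjusted p under 0.05 over the 7638 genes tested. The tables hold a part of the transcriptome in which 90.5% of tested genes were called in Model against Ctrl and 93.2% in M+NSPCC1 against Ctrl, so counts against Ctrl are set beside the share of all genes called. Markers of skin were present in all groups, with the 4 of 8 epidermal markers in the tables summing to between 7486 and 11505 CPM in every library. That sum held members that moved in opposite directions in Model against Ctrl, where Krt5, Flg and Dsp rose and Krt10 fell, with 1417 ± 633 CPM in Model and 4996 ± 883 CPM in Ctrl (SD, n = 4 each). Markers of skeletal muscle, a tissue under the skin, were lower in M+NSPCC1 and Model than in Ctrl (10 of 10 called lower in each, where 43.1% of all tested genes were called lower in M+NSPCC1 and 41.4% in Model). In M+NSPCC1 against Model 0 of 10 were called and their median log2 fold change was 0.53. Their sum was 8561 to 12904 CPM in M+NSPCC1, 3903 to 12372 CPM in Model and 66326 to 70466 CPM in Ctrl. The part of tissue makeup in the results below was not tested.

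Krtap messenger RNA was abundant in the skin of M+NSPCC1 and Model mice and close to absent in Ctrl skin. The summed level was 11755, 20443, 23345 and 19409.9 CPM in the M+NSPCC1 libraries. It was 24255.5, 40245, 29813 and 31485 CPM in the Model libraries, against 17.3, 70.7, 8.70 and 14.7 CPM in the Ctrl libraries. As a share of the estimated counts in the tables, Krtap genes took 1.28 to 2.44% in M+NSPCC1, 2.52 to 3.97% in Model and 0.000806 to 0.00647% in Ctrl. The ratio of mean summed levels was 673 for M+NSPCC1 over Ctrl and 1130.1 for Model over Ctrl. Without Ctrl 02, the highest Ctrl library, the log2 ratio was 10.4 in place of 9.40 for M+NSPCC1 over Ctrl and 11.2 in place of 10.14 for Model over Ctrl. In bulk skin, fewer shaft-forming cells and less Krtap RNA per cell cannot be told apart.

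**Figure D1:**
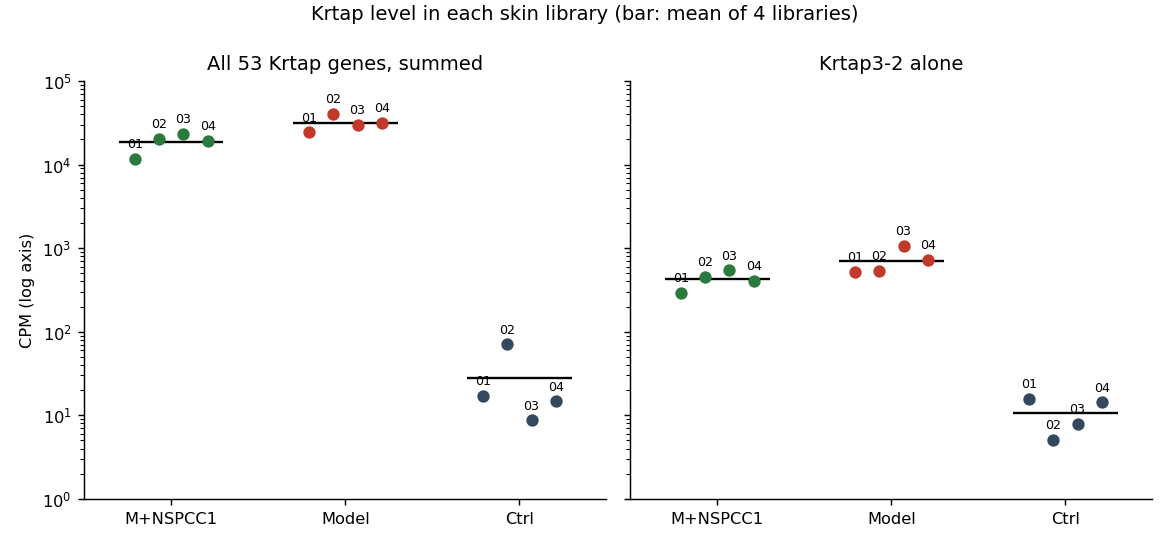
Summed CPM of the 53 Krtap genes (left) and CPM of Krtap3-2 (right) in each library, on a log axis, with library numbers beside the points and a bar at the mean of 4 libraries. In the left panel the libraries of M+NSPCC1 and Model lie at 11755 CPM or above and those of Ctrl at 70.7 CPM or below, with Ctrl 02 highest on the left and lowest on the right.

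All 53 members rose in Model against Ctrl, where 49.1% of all tested genes were called higher, and in every one of them each Model library lay above each Ctrl library (background 43.2%). In M+NSPCC1 against Ctrl, which shares its Ctrl libraries with that comparison, 52 of 53 rose (background 50.1%), and in all 53 each M+NSPCC1 library lay above each Ctrl library (background 47.4%). The median log2 fold change over Ctrl was 9.84 in M+NSPCC1 and 10.62 in Model, against 0.27 in M+NSPCC1 and 0.25 in Model over all tested genes. The median of all genes in Model against Ctrl depended on the scaling, with 0.08 under DESeq2 size factors and 0.43 under whole-library depth. With the 8 members that had no Ctrl read set at the floor of 3 counts over the group, the median log2 ratio of mean CPM was 9.77 for M+NSPCC1 and 10.54 for Model. Without Ctrl 02, 45 members were at 0 in the Ctrl libraries, and the same medians were 10.80 for M+NSPCC1 and 11.43 for Model.

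The trace of Krtap RNA in Ctrl came from unlike genes in different libraries. Krtap3-2, a high-sulfur gene of the chromosome 11 cluster (chr11:99555823-99556853), gave 142, 46, 74 and 132 estimated counts in Ctrl 01 to 04. It thereby held 91.2, 7.22, 91.2 and 97.1% of the Krtap count of those libraries. It had 293, 449, 542 and 410.2 CPM in M+NSPCC1 and 519, 533, 1058 and 729.6 CPM in Model, against 15.7, 5.08, 7.94 and 14.2 CPM in Ctrl. Its log2 fold change in Model against Ctrl, 6.04 (SE 0.41, adjusted p = 2.2e-07), was the smallest of the 53. Its counts were whole in 1 of 12 libraries, and in every library they added with those of Krtap3-3 to a whole number. In Ctrl 01 to 04, Krtap3-3 had 4.72, 16.75, 2.16 and 0 estimated counts. Part of the reads was thus divided between Krtap3-2 and Krtap3-3, and the level of each is uncertain to that extent.

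Apart from Krtap3-2, Ctrl 02 held 595 of the Krtap counts, against 13.7 in Ctrl 01, 7.16 in Ctrl 03 and 4 in Ctrl 04. In Ctrl 02, 45 of the 53 members had a count, against 5, 7 and 3 in the other libraries in the same order. Its shares of the Krtap count were 29.6% high-glycine-tyrosine, 48.5% high-sulfur and 21.8% ultra-high-sulfur. Apart from Krtap3-2, its summed level was 0.213% of the Model mean, against 0.00504, 0.00244 and 0.00140% for the other 3. Hair keratins were also highest in Ctrl 02, with a sum of 50.5 CPM against 10.6 to 14.4 CPM in the others. Krtap17-1, an ultra-high-sulfur gene whose human counterpart is a cuticle gene, was the only other member with a count in each Ctrl library, with 7, 7, 1 and 3 counts.

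The 8 members without a Ctrl read were Krtap10-4, Krtap27-1, Krtap19-1, Krtap19-2, Krtap20-2, Krtap5-1, Krtap5-3 and Krtap5-4. Krtap19-2, a high-glycine-tyrosine gene, had 111, 181, 181 and 191 CPM in M+NSPCC1 and 214, 522, 102 and 364 CPM in Model, against 0 in Ctrl. Set against the floor of 3 counts over the Ctrl group, it was at least 2029.6-fold higher in M+NSPCC1 and at least 3675-fold higher in Model. The corresponding bounds for Krtap10-4, a high-sulfur gene on chromosome 10, were 1229.7-fold in M+NSPCC1 and 1430.2-fold in Model. Counting error alone enters these bounds. Krtap20-2 was the only member not called in M+NSPCC1 against Ctrl, with a log2 fold change of 7.44 (SE 3.99, edgeR's quasi-likelihood test, adjusted p = 0.10). It was called there when the M+NSPCC1 and Ctrl libraries were fitted alone (adjusted p = 0.0025) or without Model 03 (adjusted p = 0.00040).

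Among the members themselves, levels in Model spanned 511-fold by mean FPKM, and a few genes held most of the sum. The 5 highest members held 47.5% and the 10 highest 67.3% of the summed Model FPKM. Krtap8-1 had 4773 ± 1562 FPKM in M+NSPCC1 and 7969 ± 1675 FPKM in Model (SD, n = 4 each). Krtap22-2 had 4379 ± 1609 FPKM in M+NSPCC1 and 7301 ± 1414 FPKM in Model. Krtap7-1 had 3623 ± 1242 FPKM in M+NSPCC1 and 6257 ± 1191 FPKM in Model. These 3 high-glycine-tyrosine genes, from 3 families with 1 member each, held the same first 3 ranks by FPKM in both groups. Their libraries overlapped within each group. The next in Model was Krtap3-1, with 1466 ± 355 FPKM in M+NSPCC1 and 2670 ± 423 FPKM in Model. Each of its Model libraries lay below each Model library of the leading 3. By CPM, Krtap8-1 and Krtap7-1 held ranks 1 and 2 in both groups, and Krtap22-2 held rank 10 in both.

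Of the 52 pairs of neighbours in the order of Model levels, 51 had a gap smaller than the larger SD of the pair, and the gap between Krtap7-1 and Krtap3-1 was the exception. Krtap6-5 had 2561 ± 793, Krtap16-3 had 2536 ± 1191, Krtap15 had 2464 ± 854 and Krtap19-3 had 2251 ± 1092 FPKM. Among ultra-high-sulfur genes the highest was Krtap9-3, with 535 ± 169 FPKM in M+NSPCC1 and 968 ± 181 FPKM in Model. It was followed in Model by Krtap4-1 with 564 ± 144, Krtap4-7 with 473 ± 85.2, Krtap9-1 with 408 ± 212 and Krtap17-1 with 336 ± 123 FPKM. At the low end of Model stood Krtap5-3 with 15.6 ± 8.99 FPKM and Krtap27-1 with 22.2 ± 11 FPKM. In M+NSPCC1 the lowest was Krtap20-2, with 5.97 ± 5.15 FPKM. Estimated counts were whole in all 12 libraries for 32 members (tolerance 0.005). The others, among them Krtap3-2, Krtap6-5, Krtap9-1, Krtap10-4, Krtap12-1, Krtap31-1 and Krtap31-2, had reads divided among transcripts, so their levels are uncertain where a near copy exists.

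**Figure D2:**
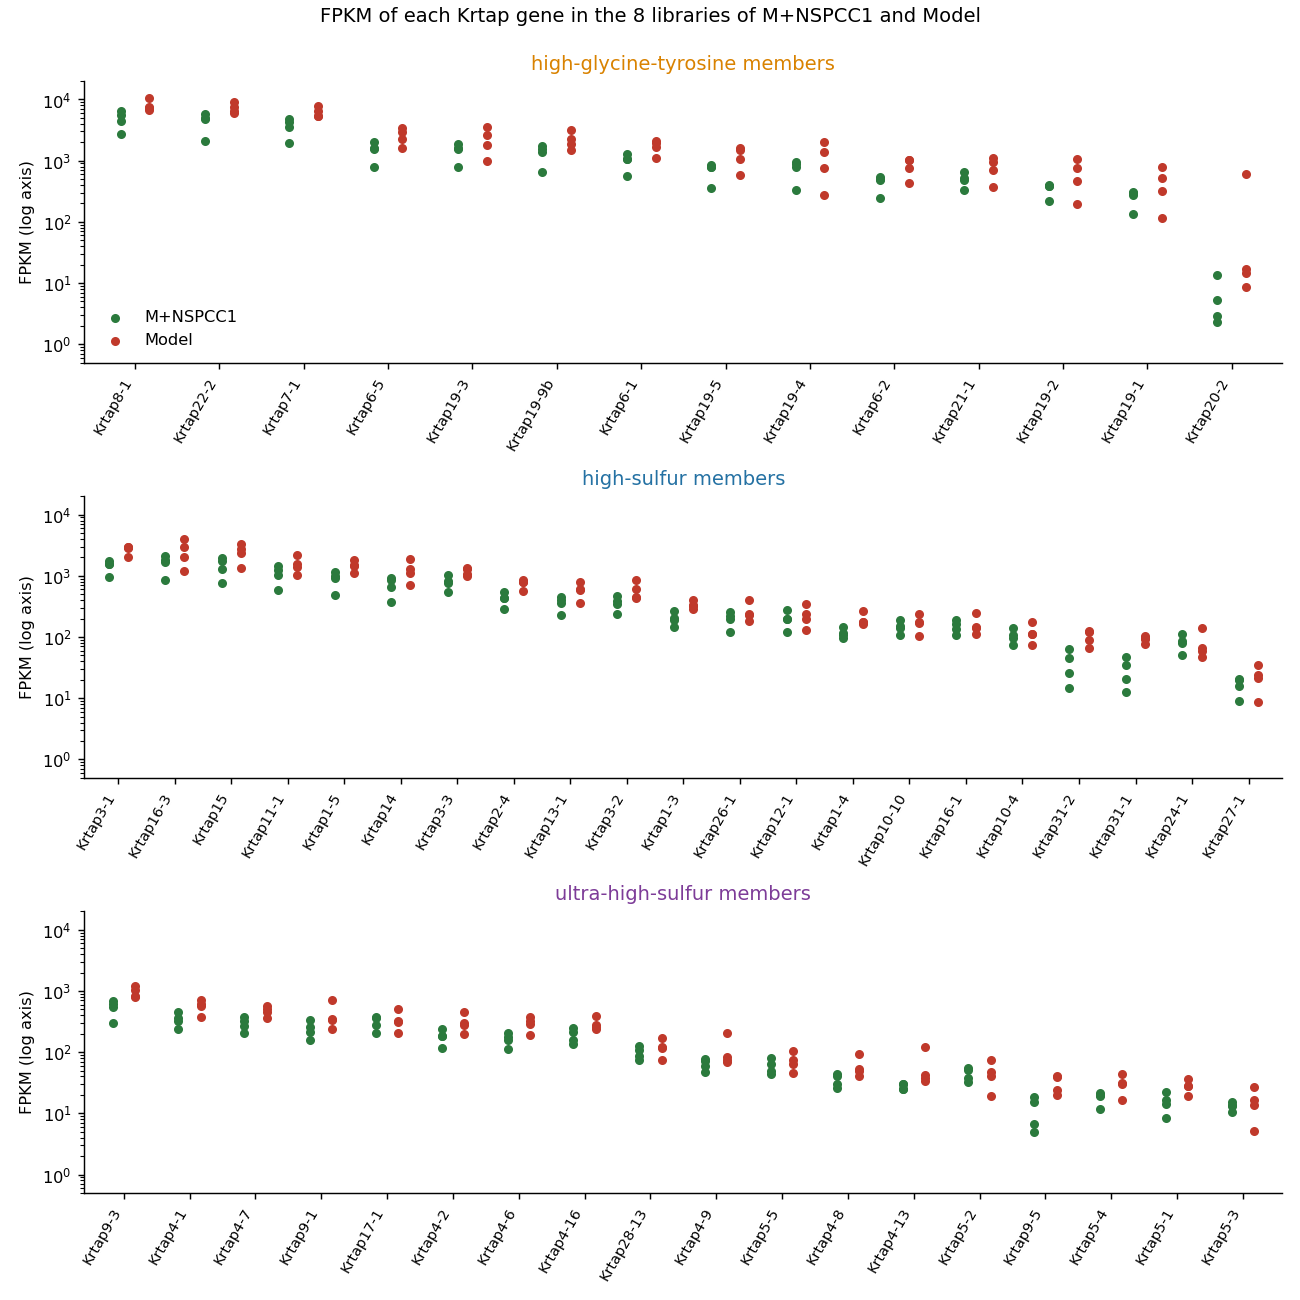
FPKM of each member in the 4 M+NSPCC1 and 4 Model libraries, 1 point per library, on a log axis, with a panel per subfamily and genes ordered by their mean in Model. Krtap8-1, Krtap22-2 and Krtap7-1 stand above all others, and Krtap20-2 has 1 Model library far above the other 7.

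The extract comparison asked whether M+NSPCC1 skin differed from Model skin, and no member was called in it. edgeR's quasi-likelihood test called 0 of 53 members and 0.0% of all 7638 genes at an adjusted p under 0.05. All but 1 of the members had a log2 fold change below 0 (52 of 53, background 48.5%), and 20 had an unadjusted p under 0.05 (background 4.48%). In 15 members every M+NSPCC1 library lay below every Model library (background 2.89%). The members were measured in the same libraries and varied together, so these counts are not independent observations and do not test the extract. The median log2 fold change over the members was -0.79, against 0.01 over all tested genes. DESeq2 called 1 member lower, Krtap31-1 (adjusted p = 0.0029), with 0.745% of all genes called lower by that tool, and it gave no adjusted p to 4 members.

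The summed levels of M+NSPCC1 and Model given above did not overlap, with a ratio of means of 0.596 and a log2 ratio of -0.75. Its range was -0.87 to -0.58 when each library was left out in turn. Within M+NSPCC1 the spread followed single libraries. M+NSPCC1 01 was the lowest of its group in 51 of 53 members and M+NSPCC1 03 the highest in 41. In Model, Model 02 was the highest in 35. Muscle markers were highest of the group in M+NSPCC1 01, with 12904 CPM, and lowest of the group in Model 02, with 3903 CPM. This order did not hold throughout. Model 03 had more muscle signal than Model 01 (12372 against 9604 CPM) and also a higher Krtap sum (29813 against 24255.5 CPM). A link between muscle markers and Krtap level was not tested. Without M+NSPCC1 01 the median log2 fold change of the members was -0.63 with 51 below 0, and without Model 02 it was -0.63 with 46 below 0.

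By subfamily the medians lay close together. They were -0.82 over the 14 high-glycine-tyrosine, -0.73 over the 21 high-sulfur and -0.80 over the 18 ultra-high-sulfur genes. The share of the summed Krtap CPM held by high-glycine-tyrosine genes was 38.6, 41.4, 39.8 and 41.1% in M+NSPCC1 and 39.1, 43.7, 43.5 and 41.3% in Model. High-sulfur genes held 46.5, 47.1, 47.1 and 45.1% in M+NSPCC1 and 48.5, 45.4, 40.4 and 46.2% in Model. Ultra-high-sulfur genes held 15.0, 11.5, 13.2 and 13.8% in M+NSPCC1 and 12.4, 10.9, 16.1 and 12.5% in Model. The groups overlapped in each of these shares.

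By position, the median log2 fold change was -0.81 on chromosome 11 and -0.79 on chromosome 16. It was -0.34 on chromosome 7, -0.24 on chromosome 10 and -0.31 for Krtap28-13 on chromosome 1. The summed level on chromosome 11 was 4119, 6134, 7454 and 6305 CPM in M+NSPCC1 and 7638, 10903, 11968.5 and 10161 CPM in Model, without overlap. The summed level on chromosome 10 was 329, 438, 587 and 471 CPM in M+NSPCC1 and 529, 791, 336 and 507 CPM in Model, with overlap. The sum on chromosome 7 overlapped as well, with 173 to 284 CPM in M+NSPCC1 and 156 to 440.5 CPM in Model. The difference between the clusters was not tested.

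**Figure D3:**
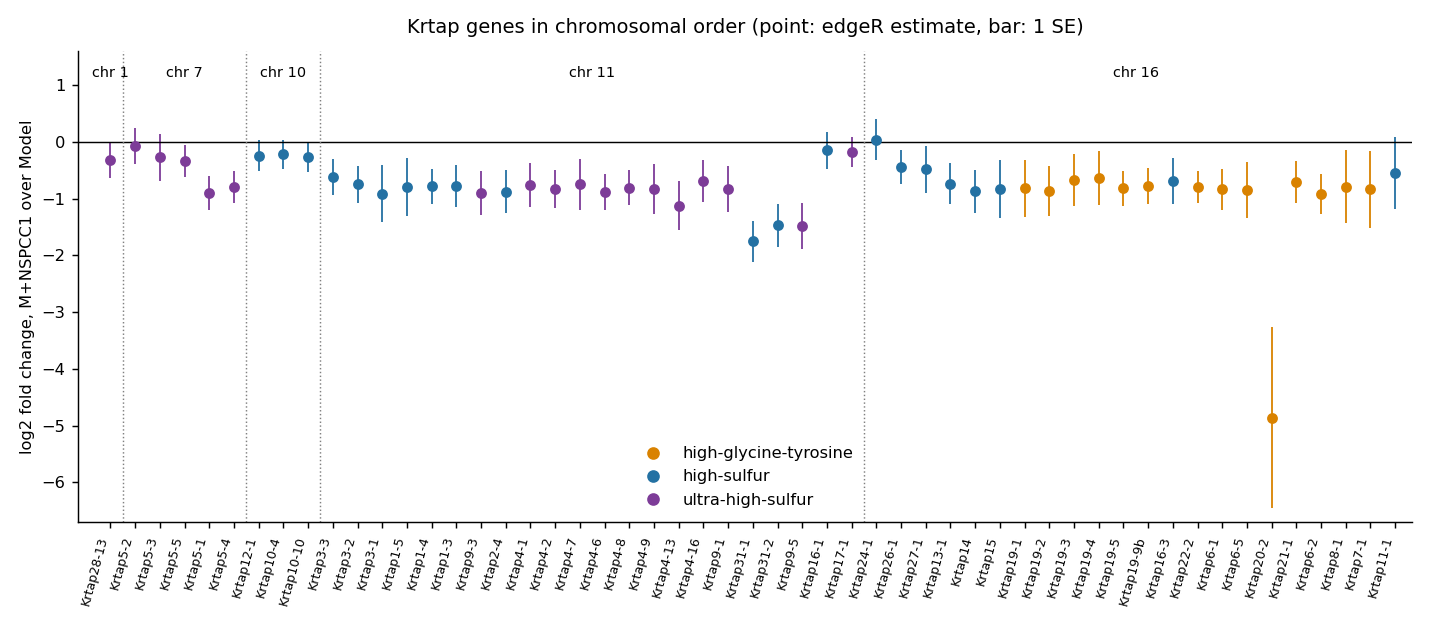
The log2 fold change of M+NSPCC1 over Model for each member in chromosomal order, with bars of 1 SE and colours by subfamily. Most points lie near -0.8, the members on chromosomes 1, 7 and 10 mostly nearer to 0, Krtap31-1, Krtap31-2 and Krtap9-5 form a lower group on chromosome 11, and Krtap20-2 lies lowest with the widest bar.

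The smallest p-values came from 3 members that follow one another on chromosome 11. Krtap31-1 (chr11:99907920-99908890), a high-sulfur gene, had 13.9, 50.4, 36.6 and 21.9 CPM in M+NSPCC1 and 82.8, 118, 113 and 101 CPM in Model. Krtap31-2 (chr11:99936291-99937225) had 15.9, 64.0, 45.7 and 26.3 CPM in M+NSPCC1 and 89.7, 133, 73.2 and 124 CPM in Model. Krtap9-5 (chr11:99948424-99949551), an ultra-high-sulfur gene, had 6.97, 25, 20.4 and 8.79 CPM in M+NSPCC1 and 32.8, 56.1, 28.5 and 53.8 CPM in Model. In each of the 3, all M+NSPCC1 libraries lay below all Model libraries, with M+NSPCC1 01 and 04 lowest. The log2 fold changes were -1.75 (SE 0.36) for Krtap31-1, -1.47 (SE 0.38) for Krtap31-2 and -1.48 (SE 0.41) for Krtap9-5. None passed edgeR's quasi-likelihood test, with adjusted p-values of 0.29, 0.40 and 0.46. Krtap31-1 and Krtap31-2 had counts that were whole in 4 of 12 libraries. In every M+NSPCC1 and Model library their fractional counts added to a whole number, as with 152.25 and 172.75 in M+NSPCC1 01. Part of their reads was thus divided between these genes, and their values are not independent.

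Members highest by FPKM, among all members and within the high-sulfur and ultra-high-sulfur groups, lay lower by nearly the same amount. Krtap8-1 had 1284, 2332, 2588 and 1977 CPM in M+NSPCC1 and 2758, 4682, 3400 and 3296 CPM in Model (log2 fold change -0.79, SE 0.64). Krtap22-2 had 321, 607, 644 and 685 CPM in M+NSPCC1 and 703, 1268, 926 and 1001 CPM in Model (log2 fold change -0.79, SE 0.29). In both genes no M+NSPCC1 library reached a Model library. Krtap3-1, of the high-sulfur group, had 484, 728, 788 and 766 CPM in M+NSPCC1 and 936, 1432, 1435 and 1391 CPM in Model (log2 fold change -0.91, SE 0.50). Krtap9-3, of the ultra-high-sulfur group, had 227, 442, 480 and 403 CPM in M+NSPCC1 and 576, 900, 657 and 763 CPM in Model (log2 fold change -0.90, SE 0.39). These groups did not overlap either, and their adjusted p-values by edgeR's quasi-likelihood test were 0.93, 0.65, 0.83 and 0.71 in the order given.

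The 3 members given next do not follow in level, and their groups overlapped. Krtap15 had 677, 1478, 1603 and 1098 CPM in M+NSPCC1 and 2016, 2981, 1226 and 2399 CPM in Model, and Model 03 alone fell among the M+NSPCC1 values. Krtap24-1 was the only member above 0, with 107, 169, 227 and 177 CPM in M+NSPCC1 and 135, 298, 103 and 124 CPM in Model (log2 fold change 0.04, 95% interval -0.76 to 0.85). Krtap10-4 had 75.2, 93.1, 129 and 105 CPM in M+NSPCC1 and 106, 175, 77.8 and 109 CPM in Model (log2 fold change -0.22, SE 0.25). In these 3 genes Model 02 stood above the other libraries. Of the abundant high-sulfur genes, Krtap11-1 and Krtap14 also overlapped, with log2 fold changes of -0.55 (SE 0.63) and -0.87 (SE 0.37). Among genes close below Krtap3-1 by Model FPKM, Krtap6-5 (-0.84), Krtap16-3 (-0.69) and Krtap19-3 (-0.68) overlapped too. Krtap1-5 did not overlap, by a narrow margin, with at most 1331 CPM in M+NSPCC1 and at least 1344 CPM in Model (log2 fold change -0.79, SE 0.51).

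Families 5, 10, 12, 17 and 24 are known from the cuticle of human hair, and their mouse namesakes lay nearer to 0 than most members. With Krtap28-13, these 11 genes had a median log2 fold change of -0.26, with 2 at an unadjusted p under 0.05, and the other 42 members had a median of -0.81, with 18. No gene of the 11 had groups without overlap, against 15 of the 42. Over all tested genes, 4.48% were lower at an unadjusted p under 0.05. Every M+NSPCC1 library lay below every Model library in 2.89%, so 0 of 11 says little by itself. This grouping was made after the values were seen, so these contrasts follow in part from the choice and were not tested. No place in the cuticle is given here for Krtap28-13. Krtap12-1 had a log2 fold change of -0.24, Krtap10-10 of -0.26, Krtap17-1 of -0.17, Krtap5-2 of -0.06 and Krtap5-5 of -0.34. Within the group, Krtap5-1 at -0.89 and Krtap5-4 at -0.80 lay with the bulk of the family, and outside it Krtap16-1 at -0.15 lay near 0. Model 03 was low in all 11 genes, at 0.324 to 0.764 times the median of the other Model libraries. Without Model 03, the changes of Krtap10-4, Krtap17-1 and Krtap5-2 were -0.37, -0.34 and -0.31, and without Model 02 they were 0.05, 0.11 and 0.29.

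Model 03 differed from the other Model libraries in different directions from member to member. It was the highest Model library in 18 members and the lowest in 26. Set against the median of Model 01, 02 and 04, it was higher in all 8 genes of family 4 (1.3 to 3.47 times) and in the 3 genes of family 6 (1.24 to 1.65 times). It was lower in the 5 genes of family 5 (0.324 to 0.735 times) and in the 6 genes of family 19 (0.210 to 0.895 times). Krtap9-1, beside the family 4 genes on chromosome 11, had 111, 169, 376 and 169 CPM in Model 01 to 04. Krtap19-1 had 89.6, 242, 37.2 and 157 CPM in the same libraries. Within the chromosome 16 cluster, family 6 and family 19 thus lay on different sides of the median of the other Model libraries in 1 library. Krtap6-1 (962 CPM) and Krtap19-9b (503 CPM) in Model 03 still lay within the range of those libraries.

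Krtap20-2, a high-glycine-tyrosine gene of chromosome 16 (chr16:89205861-89206394), departed most in that library. It had 0.917, 4.73, 1.73 and 1.07 CPM in M+NSPCC1 and 2.94, 5.56, 231 and 6.15 CPM in Model, against 0 in Ctrl. Model 03 was 41.6 times the median of the other Model libraries. Of the other 3, Model 01 lay within the M+NSPCC1 range, and Model 02 and Model 04 lay just above it. Its log2 fold change in M+NSPCC1 against Model was -4.86 (SE 1.59) with all libraries and -1.21 without Model 03. Its estimated counts were whole numbers in all 12 libraries. Model 03 was also the lowest Model library in each other list of hair shaft or follicle genes. Hair keratins summed to 13518 CPM there, against 17869 to 29561 CPM in the other Model libraries, and inner root sheath and medulla genes to 40174 CPM, against 55266 to 57104 CPM. Shaft regulators had 2110 CPM against 2989 to 3573 CPM, and cross-linking and assembly genes had 4622 CPM against 6358 to 9058 CPM. Melanocyte markers had 914 CPM against 2134 to 2683 CPM, and markers of proliferating matrix cells had 839 CPM against 1407 to 1704 CPM. It was the highest Model library in muscle markers, with 12372 CPM against 3903 to 9604 CPM, and in epidermal markers, with 11505 CPM against 7925 to 9925 CPM. Their part in the pattern was not tested.

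**Figure D4:**
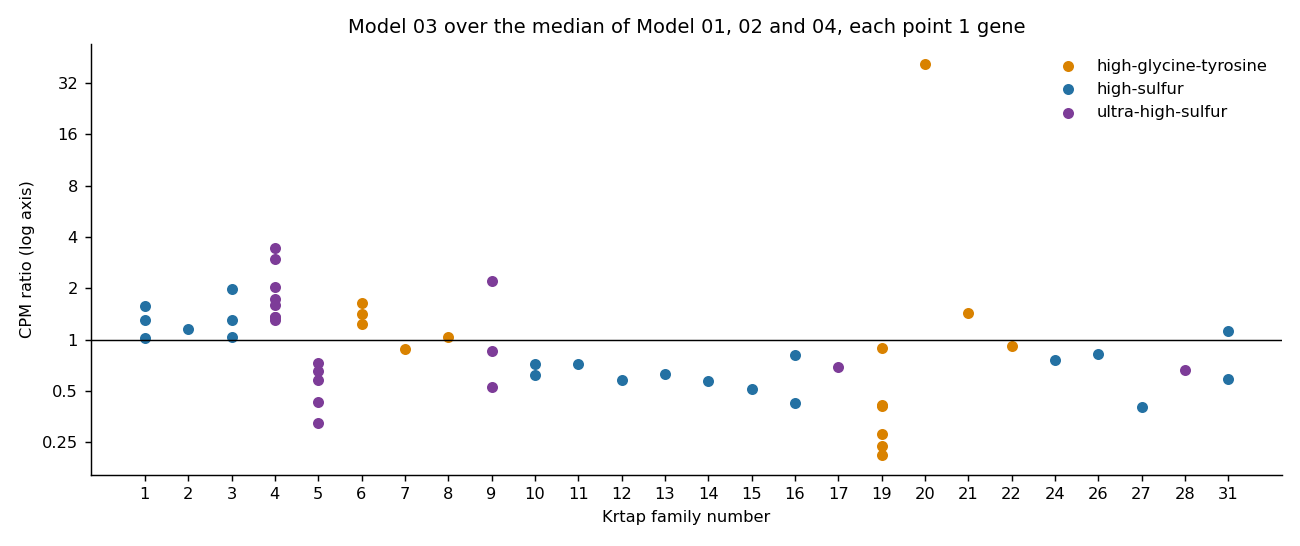
CPM in Model 03 over the median of Model 01, 02 and 04 for each member, by family number, on a log axis, with colours by subfamily. Families 4 and 6 lie above 1, families 5 and 19 below 1, and Krtap20-2 lies at 41.6.

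Other genes of the hair shaft moved alongside the members. All 15 hair keratins in the tables rose in Model against Ctrl, with a median log2 fold change of 10.55, and none was called in M+NSPCC1 against Model, where the median was -0.63. The summed Krtap CPM over the summed hair keratin CPM was 1.40, 1.32, 1.335 and 1.36 in M+NSPCC1 and 1.36, 1.36, 2.21 and 1.43 in Model. Apart from Model 03, the ratio lay between 1.32 and 1.43 in both groups. Single keratins ranged widely in M+NSPCC1 against Model. Krt84 had the lowest value at -1.59 (SE 0.39). It had 15.3, 26.1, 28.1 and 19.7 CPM in M+NSPCC1 and 41.3, 47.8, 123 and 57.1 CPM in Model, so Model 03 weighed on that value. Krt81, a cortex keratin, had -0.76 (SE 0.62). Krt35, an early keratin of matrix and cuticle, had -0.01 (SE 0.56) and Krt82, a cuticle keratin, had 0.11 (SE 0.33).

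The other lists were counted in the same way. Of 11 genes of the inner root sheath and medulla, which mould or fill the growing shaft, 11 rose in Model against Ctrl with a median of 9.22. Of 15 regulators of shaft formation, 15 rose with a median of 5.19, among them Hoxc13 at 5.88, Foxn1 at 5.86 and Lef1 at 5.19. Of 14 genes of cross-linking and assembly, 14 rose with a median of 6.97, among them Padi3, which modifies shaft proteins, at 8.87, and Dsg4, a desmosomal cadherin that holds shaft cells together, at 9.74. The background for these counts is the 49.1% given above. In M+NSPCC1 against Model none of these genes was called, and the medians were -0.36, -0.09 and -0.27 in the same order. The median of the regulators thus lay nearer to the 0.01 of all tested genes than that of the Krtap genes, a difference that was not tested. Markers of other follicle cells rose against Ctrl as well. All 7 melanocyte markers were called higher in both comparisons, with median log2 fold changes of 6.72 in M+NSPCC1 and 6.53 in Model. All 6 matrix proliferation markers were too, with medians of 2.76 in M+NSPCC1 and 2.54 in Model. In M+NSPCC1 against Model neither list had a called gene, and the medians were 0.11 for melanocytes and 0.18 for matrix proliferation. The part of these cells in the Krtap levels was not tested.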

How the data were processed

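Total RNA of mouse skin was extracted with TRIzol and made into messenger RNA libraries, per the labels' protocols. The authors deposited 1 table of estimated counts and 1 of FPKM per library, for 10720 transcripts. Without roles, HISAT2 2.2.1, RSEM 1.3.1, DESeq2 1.34.0 and mm10 appear in the submitters' processing notes, and no source used here says how the deposited transcripts were selected. Groups were taken from the sample titles.

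Estimated counts were summed per gene ID and rounded. Relative depth, from the ratio of count to FPKM, ran from 0.967 to 1.032. edgeR 4.0.16 (R 4.3.3) was fitted to all 12 libraries with TMM factors, filterByExpr, 1 coefficient per group and no covariate. The code was run on simulated counts as a check. That simulation gave every gene the same dispersion and drew genes independently, so it does not cover the shared spread of the members. Fold changes are first group over second. Alternatives used DESeq2 1.42.0, limma 3.58.1 on log2(FPKM + 1) and log2(FPKM + 0.1), other scalings, filters and libraries. Coordinates and promoters came from RefSeq, matched by gene ID. Members within 1 Mb formed a cluster. Sums, shares and ratios over members are described without a test. Bounds cover counting error only.

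The members, the lists and the promoters shown were chosen with earlier results of these data known. Named members were the 5 highest and the lowest of each subfamily, the 2 highest of each cluster, the largest changes and Ctrl counts, the smallest p-values and those not called; others were named after their values were seen.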

Additional observations from a re-analysis of the deposited data

Results flagged for a closer look

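Within each group of 4 libraries, the gap between the most extreme library and the next was compared with the group's range by Dixon's test, which flags about 1 in 20 groups by chance. The test was run on 127 groups of values, of which 15 were flagged. For single members it was run on 53 genes in M+NSPCC1 and 53 in Model, with 5 flagged in M+NSPCC1 and 6 in Model, and in Ctrl on Krtap3-2 alone, since the other genes had too few counts. The members share libraries, so these tests are not independent. In Ctrl, library 02 stood apart in the summed level of all members with 70.69 CPM, against 8.70 to 17.3 CPM in the others. It also stood apart in the sum of the high-glycine-tyrosine genes with 20.99 CPM, against 0 to 0.107 CPM, and of the ultra-high-sulfur genes with 15.35 CPM, against 0.215 to 0.774 CPM. These Ctrl sums share genes, and outside Ctrl 02 the subfamily sums rest on few counts. The rate of about 1 in 20 need not hold for them.

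In Model, library 03 stood apart in the ratio of Krtap genes to hair keratins with 2.205, against 1.36 to 1.43, and in Krtap20-2 with 231.4 CPM, against 2.94 to 6.15 CPM. It was also high in 3 genes of family 4, with 107.5 CPM in Krtap4-13, against 28.6 to 35.2 CPM, 269.8 CPM in Krtap4-9, against 85.8 to 103 CPM, and 52.39 CPM in Krtap4-8, against 21.9 to 27.0 CPM. Model 01 was low in Krtap3-1 with 935.9 CPM, against 1391 to 1435 CPM. Model 02 was high in Krtap24-1 with 297.7 CPM, against 103 to 135 CPM. In M+NSPCC1, library 01 was low in Krtap19-2 with 110.6 CPM, against 181 to 191 CPM, and in Krtap19-1 with 44.09 CPM, against 83.8 to 85.4 CPM. It was low as well in Krtap19-5 with 110.8 CPM, against 210.4 to 225 CPM, in Krtap19-9b with 178.8 CPM, against 352 to 383 CPM, and in Krtap6-2 with 202.9 CPM, against 381 to 405 CPM. What set these libraries apart was not tested.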

How the results depend on the processing

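In Model against Ctrl, 53 of 53 members were called higher under every alternative except DESeq2, which called 49 and gave the other 4 no adjusted p. In M+NSPCC1 against Ctrl the count was 52 or 53, and 49 with DESeq2. In M+NSPCC1 against Model it stayed at 0 except for 1 member with DESeq2. Replicate numbers did not pair the libraries, with correlations of same-numbered libraries between -0.197 and 0.111. With the replicate number as a block, 0 members were called in M+NSPCC1 against Model and the median log2 fold change was -0.75. Leaving out 1 library at a time, the log2 ratio of the summed level ran from 9.84 to 11.2 for Model over Ctrl, 9.10 to 10.4 for M+NSPCC1 over Ctrl and -0.87 to -0.58 for M+NSPCC1 over Model. The highest of the first 2 came without Ctrl 02. Subfamilies from protein composition were not run, as no protein sequence was used. With Krtap16-3 counted as high-glycine-tyrosine, an alternative chosen after seeing the data, the mean share of that subfamily in M+NSPCC1 minus Model was -1.53 percentage points in place of -1.71. That difference ran from -2.64 (without Model 01) to -1.12 (without Model 02) when 1 library was left out.

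Ctrl counts near 0 limit the size of changes against Ctrl, which depend on 3 libraries with few reads and on Ctrl 02. Summed levels and shares were to be tested by permutation but are given without p, since the members were chosen with results known.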
